A study of Mus musculus with 39 samples.

Results

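The genes described here were 10 markers of mesothelium, namely Msln, Muc16, Upk1b, Upk3b, Lrrn4, Bnc1, Krt19, Krt8, Krt18 and Wt1. They were found by their names in the scanner files of 39 one-colour Agilent arrays and accounted for 12 of 40628 probes and for 10 of 29411 gene names. A total of 8 genes had 1 probe, Krt8 and Muc16 had 2, and the brightest probe stood for the gene. The genes were chosen by their normalised signals on the week 6 arrays of these data, low on all but HF20, so the values of that week are given as a description with no test. They were left out of the comparisons below, and the alternatives that include week 6 are named as such.

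RNA came from epididymal fat, the visceral depot beside the epididymis, of C57BL/6J mice, which entered the study just after weaning at an age of 3 to 4 weeks, 30 animals to a group. LFC mice ate a low fat diet with 10% of calories from fat (11 arrays, at days 1, 6, 10 and 14 and at weeks 0, 3, 6, 9, 12, 15 and 18). HFC mice ate a high fat diet with added sucrose and 60% of calories from fat (10 arrays, from day 6 on). HF5, HF20 and HF75 mice ate the HFC diet to which KAL-1, an ethnobotanical formulation, was added at 5, 20 or 75 µg (6 arrays each, at weeks 3 to 18). Each diet had 1 array at a time point, and whether it held 1 animal or a pool is not given in the labels, so the time points of a diet took the place of replicates and each p-value measures the spread between time points.

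Mesothelium is the single layer of flattened, epithelium-like cells that lines the body cavities and covers the organs in them, visceral fat pads included. Its cells secrete a lubricating film and combine epithelial keratins with genes of mesodermal origin such as Wt1. Mesothelin and mucin 16, the products of Msln and Muc16, are surface proteins of these cells that bind each other. The 10 genes are not used as markers of adipocytes. In a sample of whole fat, fewer mesothelial cells and less of their RNA per cell cannot be told apart. Nor can RNA from other cells that express some of these genes.

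All values are normalised log2 signals, that is the log2 of the array's processed signal minus that array's 75th percentile, so that a difference of 1 is a factor of 2 within 1 probe, and levels of different genes are not compared. Between 53.7% and 79.6% of spots were well above background on the arrays, with 21 to 387 spots marked as outliers, apart from the LFC week 3 array (16431 outlier spots) and the HFC week 12 array (10531), and these 2 arrays are named wherever a result rests on them. The LFC week 3 array gave no value for Upk3b and Bnc1, whose spots were outliers there. Scan date followed time point for the most part, and scans of days 1 to 14 were made after all scans of weeks 0 to 18. On 29 of 39 arrays all 10 genes were well above background, and none was saturated on any array.

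**Figure D1:**
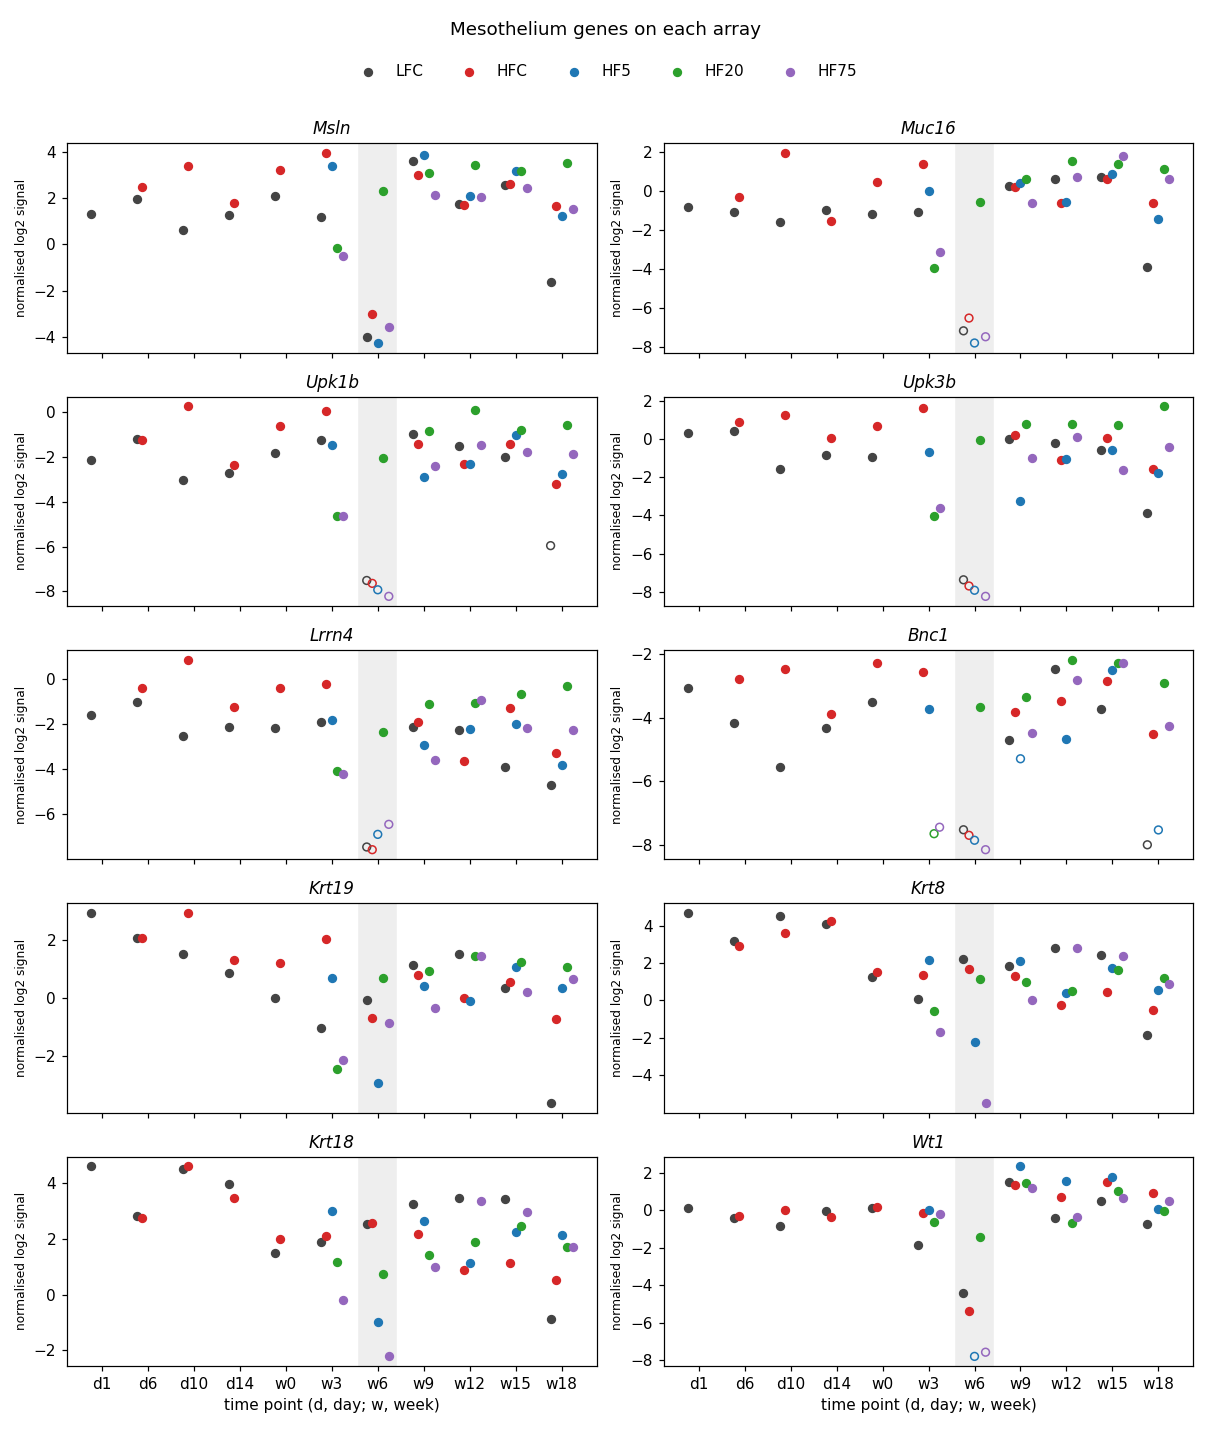
Normalised log2 signal (y axis, a scale of its own for each gene) of the 10 genes on each array by time point (x axis, d for day and w for week), coloured by diet, with open circles where the probe was not well above background and week 6 shaded. At week 6 the LFC, HFC, HF5 and HF75 arrays lie far below the rest for Msln, Muc16, Upk1b, Upk3b, Lrrn4 and Wt1, and Krt8 is highest on the arrays of days 1 to 14.

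Msln, mesothelin, was well above background on 39 of 39 arrays. Outside week 6 it ranged on the LFC arrays from -1.63 (week 18) over a median of 1.52 to 3.59 (week 9), and on the HFC arrays from 1.64 (week 18) over a median of 2.62 to 3.95 (week 3). At weeks 3, 9, 12, 15 and 18 it stood at 3.38, 3.87, 2.09, 3.17 and 1.22 with HF5, at -0.15, 3.10, 3.44, 3.18 and 3.50 with HF20, and at -0.52, 2.11, 2.04, 2.41 and 1.54 with HF75. The 5 diets overlapped, and the 3 values below 0 were those of LFC week 18, HF20 week 3 and HF75 week 3.

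Muc16 encodes a very large membrane mucin of serous surfaces. Its signal lay between -3.92 (week 18) and 0.71 (week 15) on LFC, median -1.05, and between -1.58 (day 14) and 1.94 (day 10) on HFC, median 0.21. In the order of the same 5 weeks the KAL-1 arrays read -0.01, 0.38, -0.56, 0.86 and -1.47 (HF5), -3.99, 0.61, 1.55, 1.38 and 1.13 (HF20) and -3.14, -0.63, 0.73, 1.80 and 0.61 (HF75). Again LFC week 18, HF20 week 3 and HF75 week 3 were the 3 lowest, and the diets overlapped. The second probe of Muc16 was well above background on 3 arrays only, LFC day 14 at -6.14, LFC week 3 at -2.06 and HFC week 12 at -3.20, so it could not serve as a check. The starts of both 60-base probes, 5′ to 3′, are shown because they disagree so far:
Muc16 brightest probe: cgtcatcgtctagcttattatttgtctcac
Muc16 other probe: gccacagaagttgatgtcatctgtaacttc

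Uroplakins are membrane proteins first known from the plaques of the bladder lining, and Upk1b and Upk3b are also expressed by mesothelium. For Upk1b the LFC arrays ran from -5.96 (week 18, not well above background) over -1.93 to -0.98 (week 9), and the HFC arrays from -3.23 (week 18) over -1.42 to 0.27 (day 10). Its 5 values with KAL-1 were -1.48, -2.91, -2.31, -1.03 and -2.75 (HF5), -4.63, -0.82, 0.09, -0.81 and -0.57 (HF20), and -4.62, -2.41, -1.46, -1.79 and -1.89 (HF75). The same 3 arrays were lowest. Upk3b followed it closely, from -3.88 (week 18) over -0.54 to 0.43 (day 6) on LFC and from -1.58 (week 18) over 0.21 to 1.63 (week 3) on HFC. With KAL-1, Upk3b read -0.68, -3.22, -1.04, -0.54 and -1.77 (HF5), -4.03, 0.77, 0.81, 0.74 and 1.73 (HF20), and -3.63, -0.97, 0.10, -1.62 and -0.42 (HF75). Here the HF5 array of week 9, the dimmest of all arrays with a 75th percentile of 119 intensity units, was low as well. Among the markers of the bladder lining, the uroplakins Upk1a, Upk3a and Upk2 were well above background on 18, 10 and 4 of 39 arrays, and the keratin Krt20 on 37. The 4 together summed to between 0.027 and 1.1 on the linear scale (1 being the array's 75th percentile) outside week 6.

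Lrrn4 encodes a neuronal leucine-rich repeat membrane protein that also marks mesothelial cells. It ran on LFC from -4.70 (week 18) over -2.12 to -1.0 (day 6) and on HFC from -3.64 (week 12, an array with many outlier spots) over -1.23 to 0.89 (day 10). With KAL-1 its values were -1.79, -2.90, -2.21, -1.99 and -3.81 (HF5), -4.09, -1.10, -1.05, -0.66 and -0.27 (HF20), and -4.20, -3.56, -0.93, -2.18 and -2.25 (HF75). The diets overlapped, with LFC week 18, HF75 week 3 and HF20 week 3 at the bottom. Upk3b and Lrrn4 rose and fell together across arrays (r = 0.87 over 32 arrays), and their promoters are shown from RefSeq, GRCm38.p6, as 300 bases that begin upstream of the gene's start and end just after it. Capitals mark GGAATG on either strand, the core bound by TEAD factors:
Upk3b, chr5:136038246-136038545, plus strand: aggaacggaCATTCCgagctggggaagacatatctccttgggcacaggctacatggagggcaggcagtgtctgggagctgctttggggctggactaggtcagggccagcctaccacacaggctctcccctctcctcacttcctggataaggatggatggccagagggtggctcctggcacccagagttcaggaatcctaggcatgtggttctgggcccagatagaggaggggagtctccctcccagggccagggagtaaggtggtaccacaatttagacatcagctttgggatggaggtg
Lrrn4, chr2:132880813-132881112, minus strand: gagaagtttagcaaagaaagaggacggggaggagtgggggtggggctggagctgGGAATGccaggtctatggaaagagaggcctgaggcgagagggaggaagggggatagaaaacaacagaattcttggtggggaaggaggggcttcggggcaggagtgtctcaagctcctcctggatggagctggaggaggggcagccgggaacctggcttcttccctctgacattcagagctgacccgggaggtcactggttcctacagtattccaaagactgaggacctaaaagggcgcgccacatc
The match began at -241 relative to the start in Upk3b, on the opposite strand, and at -196 in Lrrn4. GGAATG was found in 2 of the 6 promoters of these genes that the table held and in 14.7% of all 32851 promoters, so the letters are given as a description and not as a site.

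Bnc1, basonuclin 1, is a zinc finger protein of stratified epithelia and mesothelium. It was the dimmest of the group relative to background, well above it on 29 arrays. On LFC it ran from -8.00 (week 18, not well above background) over -4.15 to -2.47 (week 12) and on HFC from -4.52 (week 18) over -2.85 to -2.26 (week 0). With KAL-1 it read -3.73, -5.29, -4.67, -2.50 and -7.53 (HF5), -7.65, -3.36, -2.17, -2.29 and -2.91 (HF20), and -7.45, -4.48, -2.82, -2.28 and -4.25 (HF75). The values at -7.45 or below, and that of HF5 week 9, were not well above background and are only bounds. The Bnc1 promoter (chr7:81992250-81992549, minus strand) was 83.3% G and C against a median of 52.7% over all promoters, and held GGGCGG, the Sp/KLF box, 6 times on either strand, a box present at least once in 35.7% of promoters.

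Keratins 8 and 18 pair into the intermediate filaments of simple epithelia, and keratin 19 joins them in mesothelium. Krt19 went from -3.60 (week 18) over 1.01 to 2.92 (day 1) on LFC and from -0.71 (week 18) over 1.22 to 2.92 (day 10) on HFC. Its values with KAL-1 were 0.70, 0.43, -0.11, 1.05 and 0.35 (HF5), -2.42, 0.94, 1.45, 1.23 and 1.06 (HF20), and -2.13, -0.35, 1.46, 0.20 and 0.67 (HF75). It kept the 3 low arrays of the other genes. Krt8 ran from -1.84 (week 18) over 2.63 to 4.68 (day 1) on LFC and from -0.52 (week 18) over 1.38 to 4.22 (day 14) on HFC, while Krt18 ran from -0.86 (week 18) over 3.36 to 4.61 (day 1) and from 0.54 (week 18) over 2.13 to 4.62 (day 10). With KAL-1, Krt8 read 2.14, 2.13, 0.38, 1.75 and 0.55 (HF5), -0.55, 0.98, 0.51, 1.61 and 1.21 (HF20), and -1.68, 0.03, 2.82, 2.37 and 0.87 (HF75), and Krt18 read 3.01, 2.64, 1.15, 2.24 and 2.13, then 1.17, 1.43, 1.89, 2.48 and 1.72, then -0.19, 0.98, 3.39, 2.97 and 1.72. For both genes the top of the LFC and HFC ranges lay in days 1 to 14. The second Krt8 probe differed from the first by -1.02 to 0.26 over the arrays, with a median of -0.07. The promoters of the pair, on chromosome 15 on opposite strands, are shown since these genes were the most alike of all pairs (r = 0.95 over 32 arrays), with the GATA box AGATAA and the TATA box TATAAA in capitals, on either strand:
Krt8, chr15:102004293-102004592, minus strand: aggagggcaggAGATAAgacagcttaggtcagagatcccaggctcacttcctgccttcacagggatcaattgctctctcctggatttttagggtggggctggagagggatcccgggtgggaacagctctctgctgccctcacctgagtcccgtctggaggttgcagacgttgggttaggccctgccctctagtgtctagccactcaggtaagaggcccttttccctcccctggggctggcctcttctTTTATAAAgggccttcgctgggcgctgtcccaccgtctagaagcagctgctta
Krt18, chr15:102027966-102028265, plus strand: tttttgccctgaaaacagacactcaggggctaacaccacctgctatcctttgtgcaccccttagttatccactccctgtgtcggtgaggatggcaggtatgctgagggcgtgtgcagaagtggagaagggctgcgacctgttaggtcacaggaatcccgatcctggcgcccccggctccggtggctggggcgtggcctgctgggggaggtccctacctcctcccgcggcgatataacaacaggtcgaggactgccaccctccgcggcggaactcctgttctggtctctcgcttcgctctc
In Krt8 an AGATAA began at -239 relative to the start and a pair of overlapping TATAAA matches, 1 on each strand, just before the start, while Krt18 held neither. These letters were found in 11.2% and 13.6% of all promoters.

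Wt1 encodes a zinc finger transcription factor of mesothelium and its mesenchymal descendants. It went from -1.86 (week 3, the array with most outlier spots) over -0.23 to 1.54 (week 9) on LFC and from -0.34 (day 14) over 0.19 to 1.5 (week 15) on HFC. With KAL-1 it read 0.0019, 2.36, 1.59, 1.78 and 0.07 (HF5), -0.60, 1.46, -0.68, 1.05 and -0.05 (HF20), and -0.19, 1.19, -0.34, 0.65 and 0.52 (HF75). Unlike Msln, Muc16, Upk1b, Upk3b, Lrrn4 and Krt19, Wt1 did not have its lowest values on LFC week 18 (-0.71), HF20 week 3 and HF75 week 3. On LFC week 18 it was still the lowest of that week. All 5 arrays of week 9 stood at 1.19 to 2.36.

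Across the 32 arrays other than week 6, LFC week 3 and HFC week 12, the Pearson correlation of a gene with the median of the 10 genes was 0.94 for Muc16, 0.93 for Upk1b, 0.90 for Msln, 0.86 for Bnc1, 0.84 for Upk3b, 0.83 for Krt19 and 0.77 for Lrrn4. It was 0.50 for Krt18, 0.48 for Krt8 and 0.38 for Wt1. These arrays share diets, time points and scan dates, each gene is part of the median, and the values are a description. Wt1 correlated with Msln (r = 0.48) and Muc16 (r = 0.37) but had r = 0.01 with Upk3b and -0.03 with Lrrn4. Among 20366 gene names, those outside the 10 with the highest correlation were Nkain4 (r = 0.91), Gjb5 (0.91), Crb2 (0.91), Apol7a (0.90), Crym (0.89), Pcnxl2 (0.87), Gpm6a (0.87), Spock2 (0.85), Gm8773 (0.84) and Pkhd1l1 (0.83). Of these, Nkain4, Gpm6a and Pkhd1l1 were also on a list of 14 further mesothelial markers, and the median of that list had r = 0.88 with Msln and 0.41 with Krt8. Some further markers of mesothelium thus followed the 10 genes, though most of the names most alike were not on that list. Others of the list were well above background on few arrays (Calb2 on 8, Ildr2 on 10 and Itln1 on 14 of 39). Among the 10 genes Krt8, Krt18 and Wt1 had the lowest correlations with the group.

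**Figure D2:**
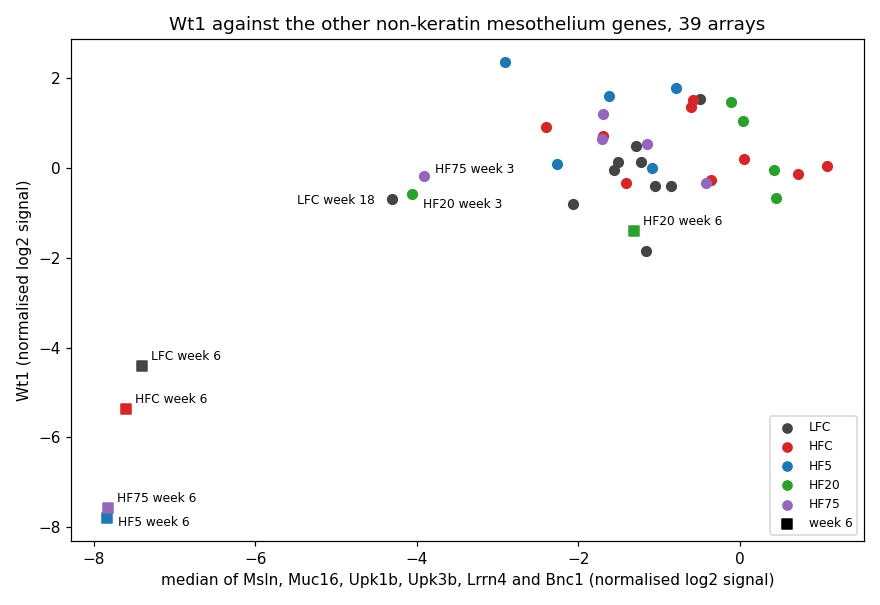
Wt1 (y axis, normalised log2 signal) against the median of Msln, Muc16, Upk1b, Upk3b, Lrrn4 and Bnc1 (x axis, same unit) on 39 arrays, coloured by diet, squares for week 6. The week 6 arrays of LFC, HFC, HF5 and HF75 are low on both axes. LFC week 18 (Wt1 at -0.71), HF20 week 3 (-0.60) and HF75 week 3 (-0.19) are low on the x axis, with Wt1 well above those week 6 arrays. Within its week, Wt1 was still lowest on LFC week 18 and second lowest on HF20 week 3.

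At week 6 the LFC, HFC, HF5 and HF75 arrays had low values of 6 of the 10 genes, as the choice of genes already used. Msln read -4.0, -3.01, -4.26 and -3.56 in that order, 55.3-fold lower in the mean than on the 20 arrays of the same diets at weeks 3, 9, 12, 15 and 18 (mean of 4 arrays -3.71, mean of 20 arrays 2.08). For genes that were not well above background on any of the 4 arrays the fold is a bound, the bright mean set against the higher of the dim signal and the lowest signal well above background on each array. Muc16 was at least 42.8-fold lower, Upk3b at least 24.4-fold, Upk1b at least 11.1-fold, Lrrn4 at least 8.38-fold and Bnc1 at least 2.54-fold. Wt1 read -4.40 and -5.38 on LFC and HFC, and was not well above background on HF5 (-7.79) and HF75 (-7.57), so that it was measured on 2 of the 4 arrays and no fold is given. The 4 arrays lay below all of the 20 for 6 of the 10 genes, against 0.177% of 27632 probes, a count from which nothing is read since the genes were chosen with this contrast in view. Msln and the 3 keratins were well above background on all 4 arrays. Of the 14 further mesothelial markers 11, 11, 8 and 10 were well above background on LFC, HFC, HF5 and HF75, and 12 on HF20. Their summed linear levels were 39.1, 32.3, 15.3 and 30.2 on the 4 arrays, inside the range of the 34 arrays of other time points. Such a sum weighs the brightest genes most. The median of the list read -1.27, -1.88, -3.39 and -1.67 on the 4 arrays and -0.25 on HF20. Outside week 6 only LFC week 18 (-2.71), HF20 week 3 (-2.81) and HF75 week 3 (-3.04) had a median below -1.27, and HF5 week 6 lay below these as well.

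The keratins shared this pattern only in part. Krt8 read 2.22 and 1.68 on LFC and HFC at week 6, inside the range of the other weeks. On HF5 and HF75 it read -2.21 and -5.49, below the lowest of the 20 arrays (-1.84). Krt18 read 2.55 and 2.57 on LFC and HFC, and -0.97 and -2.21 on HF5 and HF75, again below the lowest of the 20 (-0.86). Krt19 read -0.08, -0.67, -2.91 and -0.86, all above the lowest of the 20 (-3.60). The HF20 array of week 6 had all 10 genes well above background, with Msln at 2.31, Upk3b at -0.07, Muc16 at -0.56 and Wt1 at -1.40. Of 5 transcription factors of subcutaneous fat, 4 were well above background on each of the 4 arrays and 2 on HF20. LFC day 14, HFC week 0 and HFC week 15 also had 4. Tbx15 read -0.52, -0.53, -1.46 and -0.97 on LFC, HFC, HF5 and HF75, Hoxc10 -3.0, -2.74, -2.38 and -2.77, and Shox2 -3.77, -4.39, -5.29 and -3.52. On the arrays with many outlier spots, Tbx15 read -1.39 (LFC week 3) and Hoxc10 1.21 (HFC week 12). All further values of Tbx15, Hoxc10 and Shox2 lay below those of the 4 arrays. Hoxc9 read -0.33, 0.28, 0.31 and 0.24, within the range of the other arrays, and En1 was not well above background. Of the factors of visceral fat, Tcf21 read -3.70 and -5.10 on LFC and HFC and was not well above background on the other 2. Gata6 read 0.61, 1.28, 0.71 and 0.97, within the range of the other arrays, and Gata4 was well above background on HFC alone of the 4 (-3.25). The part of these genes in the result was not tested. HF20 and HF75 of week 6 were scanned on another date than LFC, HFC and HF5, so the 4 arrays spanned both dates.

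Outside week 6 the median of the 10 genes lay between -1.17 (LFC day 10) and 1.62 (HFC day 10) on the arrays, with 3 exceptions, LFC week 18 at -3.74, HF20 week 3 at -3.20 and HF75 week 3 at -2.63. On LFC week 18 each of the 10 genes was the lowest of the 5 arrays of its week, as were 9.39% of 28001 probes, and 8 genes stood 2 or more below the median of the week, as did 0.204% of probes. On HF20 week 3, 10 of 10 genes were lowest or second lowest (32.2% of 27347 probes) and 4 stood 2 or more below the week's median (0.285%). On HF75 week 3 these counts were 9 (31.4%) and 4 (0.585%). The median over the 10 genes of the distance from the week's median was -2.87, -1.63 and -1.80 on the 3 arrays. These arrays were singled out by their values, so the counts carry no test.

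Of the depot factors, Tbx15 and Shox2 were not well above background on any of these 3 arrays, Hoxc9 was on each, and Hoxc10 was on LFC week 18 alone (-4.66). Tcf21 read -1.44, -2.35 and -1.83 on LFC week 18, HF20 week 3 and HF75 week 3, and Gata6 0.63, 0.30 and 0.38. HF20 week 3 and HF75 week 3 lay on 1 slide, and LFC week 18 lay on a slide with HFC week 18, whose median was -0.66. The 10 markers of epididymal epithelium, the tissue next to this fat pad, differed among the 3, with a summed linear level of 48.1 on HF20 week 3, where none lay below the week's median, 13.5 on HF75 week 3, where 8 of 10 did, and 0.203 on LFC week 18. Among the 14 further mesothelial markers, 9 of 10 with a value well above background were below the week's median on LFC week 18, 6 of 9 on HF20 week 3 and 5 of 9 on HF75 week 3. Of the 7 adipocyte markers 4, 0 and 1 were below it, though saturated probes limit this list (Fabp4 on 39 arrays, Cidec on 18, Adipoq on 16 and Plin1 on 10). In the same order 6, 1 and 5 of 7 stromal progenitor markers were below it, and 3, 2 and 1 of 4 macrophage markers. Of the general epithelium markers well above background, 3 of 3, 0 of 4 and 4 of 4 were below it. The sample titles of LFC week 18 and HF20 week 3 carry a mark, Ts, which the labels do not define. No other title carries it, that of HF75 week 3 included. The part of these genes, of the slide and of this mark in the low values was not tested.

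Next, the high fat and low fat diets were compared over the 9 time points that had both, week 6 left out. On HFC 8 of the 10 genes were higher in the mean and none passed the threshold of adjusted p under 0.05 (limma, time point as a block, Benjamini-Hochberg over 29525 probes, adjusted p = 1.00 for each gene), where 0% of all probes passed. At an unadjusted p under 0.05, 5 of 10 were higher and none lower, against 1.29% of all probes higher and 3.06% in either direction. The median difference of the 10 genes was 0.96, and that of all probes 0.03, with 53.8% of all probes higher on HFC.

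The 5 genes were Lrrn4 (log2 difference 1.25 ± 0.42 SE, limma p = 0.0127), Bnc1 (1.29 ± 0.45, p = 0.0167), Msln (1.15 ± 0.43, p = 0.0203), Upk3b (1.01 ± 0.39, p = 0.0266) and Wt1 (0.67 ± 0.26, p = 0.0268). Muc16 (1.09 ± 0.51), Upk1b (0.91 ± 0.42) and Krt19 (0.82 ± 0.45) had positive differences with larger p, and Krt8 (-0.41 ± 0.43) and Krt18 (-0.48 ± 0.40) negative ones. By time point, the HFC minus LFC difference of Lrrn4 was 0.63, 3.40, 0.87, 1.78, 1.68, 0.21, -1.38, 2.65 and 1.43 from day 6 to week 18, positive at 8 of 9. That of Msln was 0.54, 2.74, 0.49, 1.11, 2.77, -0.59, -0.02, 0.07 and 3.28, positive at 7 of 9. The same count was 7 of 9 for Krt19 and Wt1, 7 of 8 for Upk3b and Bnc1, 6 of 9 for Upk1b, 5 of 9 for Muc16 and 4 of 9 for Krt8 and Krt18. Among all probes with 9 time points 7.6% were positive at 7 or more and 1.21% at 8 or more, and among those with 8 time points 3.27% were positive at 7 or more.

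The highest (most positive) difference of a gene came at day 10 for Upk3b, Upk1b, Lrrn4 and Muc16. It came at week 18, where LFC was one of the 3 low arrays, for Msln, Bnc1, Krt8 and Krt18. For Krt19 (3.07) and Wt1 (1.72) it came at week 3. In Krt8 (-3.06) and Krt18 (-2.60) the negative difference at week 12 was larger in size. The LFC array of week 3 had many outlier spots, and without week 3 the count at p under 0.05 was 3 with a median difference of 0.89. Without week 18 the count at p under 0.05 was 2 (Lrrn4 and Bnc1) and the median difference 0.74, without day 10 it was 3 with a median of 0.75, and without week 12, where the HFC array had many outlier spots and 8 of the 10 genes had their lowest difference, it was 7 with a median of 1.20. Leaving out LFC week 3 and HFC week 12 gave 6 and 1.1. With median scaling, quantile normalisation or normexp background 1 of 10 remained under 0.05 (median 1.01, 0.92 and 0.42).

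Other lists moved along with this comparison, in which 53.8% of all probes tested had a positive difference. All 11 further mesothelial markers tested had a positive difference (median 0.68), 2 of them at unadjusted p under 0.05. These were Pdpn, podoplanin, a mucin-type surface protein (0.60 ± 0.25), and Aldh1a2, an enzyme of retinoic acid synthesis (0.52 ± 0.23). The 3 largest differences of the list missed it, those of Anxa8, an annexin (1.0 ± 0.49, limma p = 0.0637), Gpm6a, a neuronal membrane glycoprotein (0.97 ± 0.47, p = 0.0651), and Krt7, a simple epithelial keratin (0.89 ± 0.43, p = 0.0665). All 10 epididymal epithelium markers had a negative difference (median -2.16). Of these, 5 were under an unadjusted p of 0.05, where 522 of 29525 probes were lower. The summed linear level of these markers ranged from 0.175 to 122 on the LFC arrays and from 0.0635 to 86.6 on the HFC arrays. The 4 macrophage markers were all positive (median 0.83, summed level 2.28 to 16.5 on LFC and 5.30 to 31.3 on HFC), and the 5 general epithelium markers tested, genes of epithelial junctions and identity, were all negative (median -0.55). Of the 7 adipocyte markers 6 were positive (median 0.44), with Lep, the hormone leptin, alone under 0.05 (1.79 ± 0.63), and the list summed to 98.9 to 418 on LFC and 102 to 409 on HFC. Of the 7 stromal progenitor markers 5 were positive (median 0.21), with Dpp4, a surface peptidase, alone under 0.05 (0.71 ± 0.24), and the list summed to 83.6 to 314 and 104 to 298. The part of these cell types in the differences of the 10 genes was not tested.

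**Figure D3:**
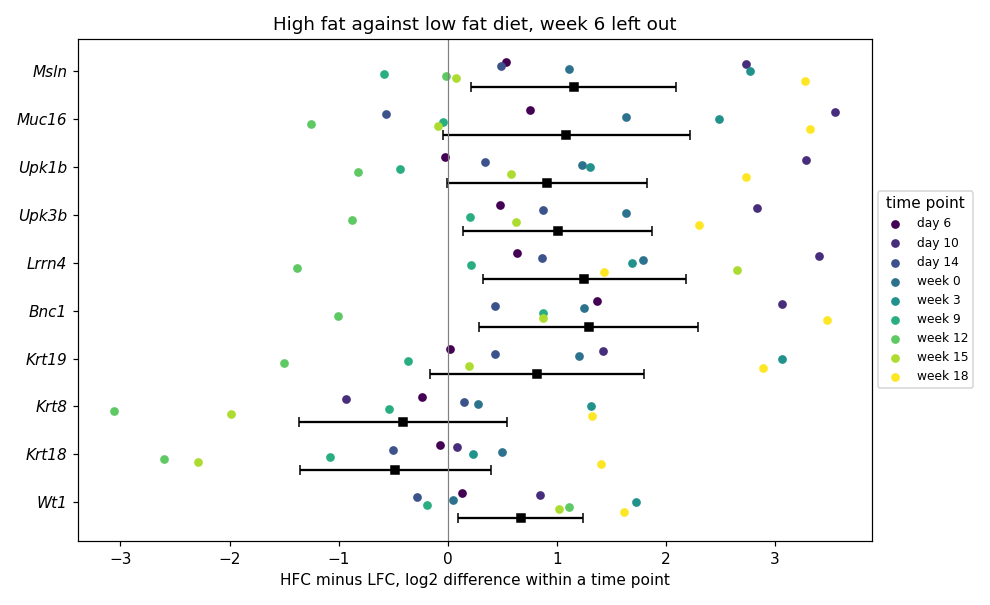
HFC minus LFC, log2 difference within a time point (x axis), for each of the 10 genes (y axis), coloured by time point, with the limma estimate and its 95% confidence interval as a black square and bar below the points. Estimates of 8 genes lie above 0, with day 10, week 3 and week 18 mostly at the right and week 12 at the left, and those of Krt8 and Krt18 lie below 0.

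In the fit of 25 arrays over 5 diets at weeks 3, 9, 12, 15 and 18, again no probe of 31729 passed for HFC against LFC (0%, limma, 2.87% at unadjusted p under 0.05). Among the 10 genes Wt1 alone was under 0.05 (1.05 ± 0.33, p = 0.00504, adjusted p = 1.00). At these weeks the Wt1 signal on HFC minus that on LFC was 1.72, -0.19, 1.11, 1.02 and 1.62. With LFC week 3 and HFC week 12 left out it was 0.79 in the fit, and Lrrn4 was then under 0.05 as well.

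The KAL-1 doses were then set against HFC in the same fit, to ask whether the formulation shifted these genes on the high fat diet. No probe passed at any dose (0% of 31729, limma), and none of the 10 genes was under an unadjusted p of 0.05 at HF5, HF20 or HF75 or for the mean of the 3 doses, against 3.31%, 1.55%, 2.25% and 1.43% of all probes. The median difference of the 10 genes was -0.20 for HF5, 0.09 for HF20, -0.57 for HF75 and -0.26 over the doses together. The intervals were wide and leave room for changes in both directions, as in Msln, where the 95% confidence interval ran from -1.42 to 1.74 for HF5, from -1.55 to 1.61 for HF20 and from -2.65 to 0.51 for HF75. In Upk3b it ran from -3.37 to 0.76, from -1.92 to 2.21 and from -3.23 to 0.90. Wt1 had the narrowest, from -0.40 to 1.00, from -1.32 to 0.07 and from -1.19 to 0.20.

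These medians moved with week 3, when 2 of the 3 KAL-1 arrays were the low ones described above. Without week 3 the medians were 0.09, 1.04, 0.25 and 0.55 for HF5, HF20, HF75 and the mean of doses. Lrrn4 and Upk1b were then under an unadjusted 0.05 for HF20 (2 of 10, the lowest limma p 0.0181). The share of all probes under 0.05 is given for the main fits only, so nothing is read from this count. With LFC week 3 and HFC week 12 left out they were -0.60, -0.29, -1.04 and -0.63. The 3 doses share the HFC arrays.

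**Figure D4:**
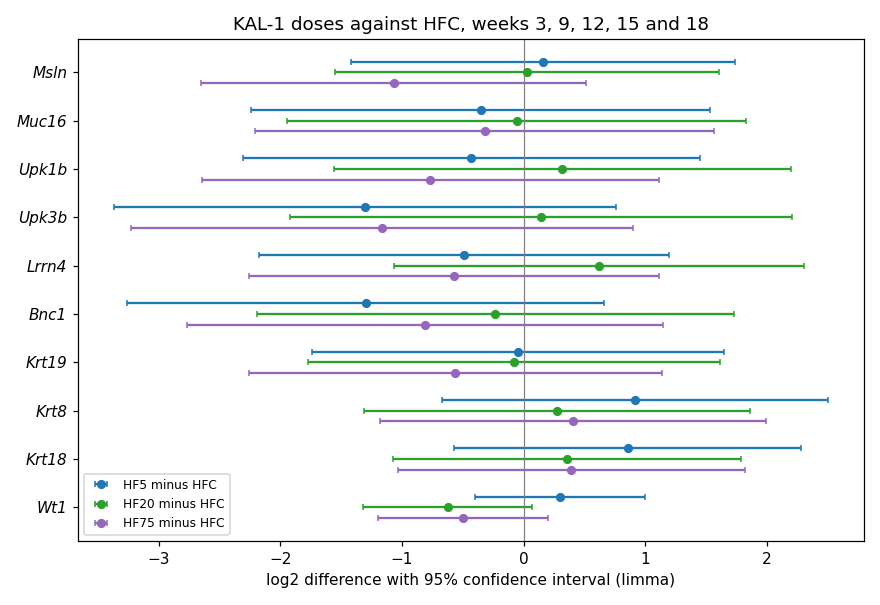
Log2 difference from HFC with its 95% confidence interval (x axis, limma, weeks 3, 9, 12, 15 and 18) for the 10 genes (y axis) at the 3 doses of KAL-1. Every interval includes 0, and that of Upk3b with HF5 reaches lowest, from -3.37 to 0.76.

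Finally, late arrays (weeks 3, 9, 12, 15 and 18) were compared with early ones (days 1 to 14 and week 0) within each diet. Krt8 had the largest difference in both, -2.48 ± 0.93 on LFC (limma p = 0.022, adjusted p = 0.683) and -2.60 ± 0.60 on HFC (p = 0.0014, adjusted p = 0.308). On LFC none of the 10 genes passed the threshold, against 0.353% of 30298 probes, and Krt8 was the only one under an unadjusted 0.05 (6.17% of probes in either direction, 4.24% lower), in place of which Lrrn4 was the only one without the LFC week 3 array. On HFC no probe of 29056 passed (0%), while 5 of the 10 genes were under an unadjusted 0.05, against 13.6% of probes, 6.25% higher and 7.39% lower. These were Krt8, Krt18 (-1.84 ± 0.56, p = 0.0081, adjusted p = 0.316), Krt19 (-1.35 ± 0.56, adjusted p = 0.351) and Lrrn4 (-1.78 ± 0.71, adjusted p = 0.344), which had lower late values, and Wt1 (0.96 ± 0.36, adjusted p = 0.333), which had higher ones. Without the HFC week 12 array 3 of them were under 0.05, Krt8, Krt18 and Wt1. Leaving out each time point in turn, the HFC count ran from 2 (Krt8 and Krt18, without day 6) to 6, with Krt8 and Krt18 among them each time, and the LFC count from 0 (without day 1 or day 10) to 2. With week 0 as the only early array it was 0 in both diets. Msln (0.03 on LFC, -0.12 on HFC) and Muc16 (0.46 and 0.07) had differences within their SE. The change in HFC minus the change in LFC did not pass for any of 29525 probes (0%, limma), and none of the 10 genes was under an unadjusted 0.05 there, against 5.19% of probes, while Wt1 was without week 9.

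Krt8 read 4.68, 3.17, 4.52 and 4.08 at days 1, 6, 10 and 14 on LFC and 2.93, 3.58 and 4.22 at days 6, 10 and 14 on HFC. At week 0 it was 1.26 and 1.54, and at weeks 3, 9, 12, 15 and 18 it was 0.07, 1.82, 2.82, 2.45 and -1.84 on LFC and 1.38, 1.28, -0.24, 0.46 and -0.52 on HFC. Each of the 7 arrays of days 1 to 14 was above each of the 25 arrays of 5 diets at weeks 3 to 18, which was so for 1 of the 10 genes and 0.336% of 28311 probes, whereas both week 0 arrays lay inside the later range. With week 0 as the only early array the difference was -0.20 on LFC and -1.07 on HFC. A paper on liver samples of the same series counts weeks from day 14, so that day 14 and week 0 were the same time. Krt8 nevertheless read 4.08 and 4.22 at day 14 and 1.26 and 1.54 at week 0 on LFC and HFC. The days were scanned after week 0 and the later weeks, and the parts of scan period and age were not tested.

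The general epithelium markers, Epcam, Cdh1, Cldn3, Cldn7, Elf3 and Esrp1, moved along with Krt8. Their summed linear level was 2.86 to 17.6 on the arrays of days 1 to 14, 0.544 and 1.28 at week 0 and 0.216 to 4.31 at weeks 3 to 18, with each of the 6 well above background on at least 1 of the early arrays. On HFC the 5 markers tested were all lower late (median -3.91, 5 at unadjusted p under 0.05), with Cldn7, a tight junction claudin, at -4.0 ± 0.85, Epcam, an adhesion molecule of epithelia, at -3.99 ± 0.85 and Cdh1, E-cadherin, at -3.91 ± 1.01 (adjusted p = 0.308, 0.308 and 0.314). On LFC they were also all lower (median -1.10, none under 0.05), while 50.8% of all probes were higher late on HFC and 43.7% on LFC. The correlation of Krt8 with the median of these markers was 0.71 over the 32 arrays, 0.92 over the 9 early and 0.49 over the 23 late ones, and that of Msln was -0.14 over the 32. Epididymal epithelium markers summed to between 0.145 and 122 on the arrays of days 1 to 14 and to between 0.0635 and 114 on the late ones. On HFC the 4 macrophage markers were also all lower late (median -0.58), with Csf1r, a growth factor receptor of macrophages, alone under an unadjusted 0.05 (-1.23 ± 0.46). Of the 7 adipocyte markers 6 were lower (median -0.66) and of the 7 stromal progenitor markers 6 were higher (median 0.43), none of either under 0.05. The part of these cell types in the keratin values was not tested.

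**Figure D5:**
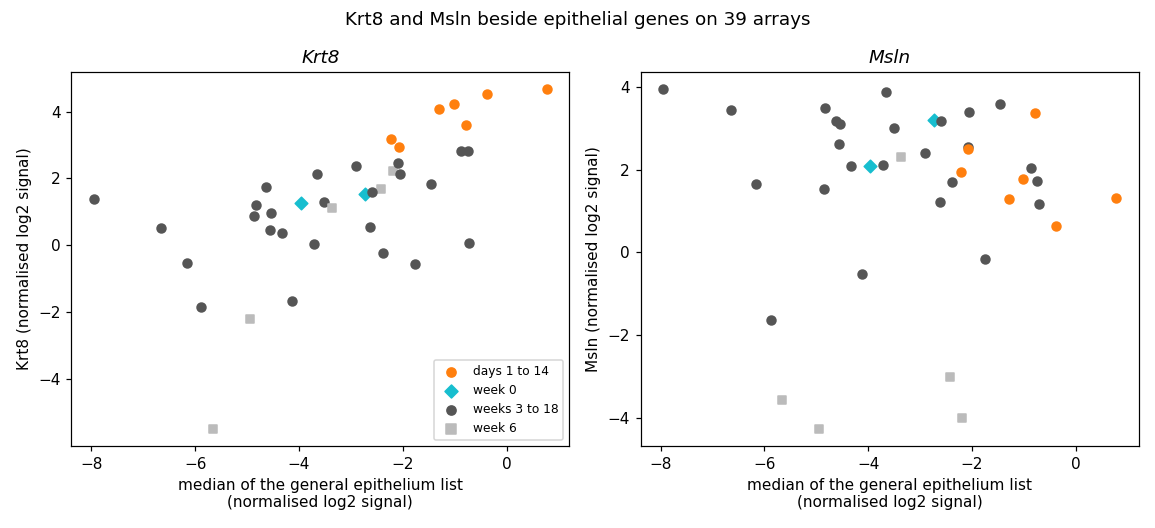
Krt8 (left) and Msln (right), normalised log2 signal on the y axes, against the median of the general epithelium markers (x axes, same unit) on 39 arrays marked by period. The 7 arrays of days 1 to 14 are at the upper right for Krt8 (2.93 to 4.68), while Msln shows no rise towards the right.

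Of the 11 further mesothelial markers tested on HFC, 6 were higher late and 5 lower (median 0.08), with none at an unadjusted p under 0.05, and on LFC 4 were higher and 7 lower (median -0.14), with 1, Pdpn, under 0.05 at -0.89 ± 0.38. The difference between these lists and the keratins was not tested. The median of the 10 genes, beside that of all probes tested, was -0.62 against -0.09 on LFC and -0.78 against 0.01 on HFC. Without week 18 the LFC median was 0.20 and Muc16 had a difference of 1.27.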

How the data were processed

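RNA of 39 samples was hybridised to one-colour Agilent mouse arrays. The values used were the processed signal intensity of each spot, background-subtracted by the authors' scanner software (Feature Extraction 10.5.1.1 per the file headers, 9.1 per the submitters' processing notes, annotation build mm9 per the file headers). The deposited series table held log2 values of the same arrays, which correlated with the values used here at r = 0.992 to 1.00 on the 28 arrays compared, and served as an alternative.

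Control spots and outlier spots were left out, the spots of a probe were averaged, and log2 intensity minus the 75th percentile of the array was used. Groups came from the sample labels. A probe was tested if its signal cleared background on 9 or more of 18 arrays (diets over all time points), 5 of 25 (5 diets at weeks 3 to 18), 5 of 10 (LFC) or 5 of 9 (HFC), with limma 3.58.1 (R 4.3.3; lmFit, eBayes, two-sided) with Benjamini-Hochberg adjustment over all probes tested and a threshold of 0.05. Time point was a block between diets, there was no block within a diet, and the scripts were tested on simulated data. The precision is limited by 1 array per diet and time point. For a probe below that bar throughout a group, the fold was taken against the lowest signal well above background.

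Named were the 10 genes, up to 3 genes of each list and comparison with the largest difference, and the 10 gene names most correlated with the median of the 10 genes. Single values beyond that (Pdpn, Aldh1a2, Csf1r, the depot factors and the counts of urothelium markers) were chosen after their values were seen. The genes and lists were chosen with earlier results of these data known. One gene of the general epithelium list is not reported here and was left out of that list's values. Alternatives were the scaling, the background correction, the filter on dim probes, outlier spots, array weights, slide as a block, week 6 included, and each time point left out. Promoter sequences came from RefSeq (GRCm38.p6).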

Additional observations from a re-analysis of the deposited data

Results flagged for a closer look

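Within a diet, single arrays stood apart from all others, by the gap to the nearest array over the range of the diet (Dixon's 95% criterion), in 20 of 44 sets of values. Chance gives about 1 in 20 for independent sets, while these sets share arrays and hold genes that vary together. Of the 20, 15 were week 6 arrays, whose values chose the genes, so those are a description from which nothing is read. LFC, with 11 arrays, was not compared in this way.

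The HFC array of week 6 stood apart for Msln (-3.01, nearest array 1.64), Upk3b (-7.70), Upk1b (-7.64), Muc16 (-6.53), Wt1 (-5.38), Bnc1 (-7.70) and the median of the 10 genes (-5.96). The HF5 array of week 6 did so for Msln (-4.26, nearest 1.22), Upk3b (-7.92), Upk1b (-7.93), Krt19 (-2.91), Muc16 (-7.81), Wt1 (-7.79) and the median (-7.34), and the HF75 array of week 6 for Wt1 (-7.57). Not well above background among these were Upk3b, Upk1b, Muc16 and Bnc1 on HFC, Upk3b, Upk1b, Muc16 and Wt1 on HF5, and Wt1 on HF75, where the size of the gap is not measured.

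The HF20 array of week 3 stood apart for Msln (-0.15, nearest array 2.31), Upk3b (-4.03), Krt19 (-2.42), Bnc1 (-7.65) and the median of the 10 genes (-3.20, nearest -0.31). Its Bnc1 was not well above background. The array was also on the slide of the low HF75 array of week 3.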

How the results depend on the processing

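Of the counts of probes past the threshold, 138 of 164 alternatives stayed within 1.5 times the main count, 162 of 164 medians of the 10 genes moved by less than the spread of the 10 genes, and 335 of 342 single-gene results kept their direction and side of the threshold. The exceptions follow. For late against early LFC arrays, 107 probes passed, against 193 with LFC week 3 and HFC week 12 left out, 43 with outlier spots kept, 19 with median scaling, 34 with quantile normalisation, 0 with normexp background, 22 with no filter on dim probes, 1 with a filter for signal over background on each array, 326 with array weights, 0 with week 0 as the only early array, and 0 to 193 leaving out each time point. For HFC, 0 passed, against 43 with median scaling, 6938 with array weights, 1 with week 0 as the only early array, and 0 to 148 leaving out each time point. Leaving out each time point gave 0 to 1 for HFC against LFC at weeks 3 to 18, HF20 against HFC and the mean of doses.

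The median of the 10 genes was 0.83 for HF5 against HFC with array weights and -1.59 for late against early HFC with week 6 included. Bnc1 turned to -0.01 for HFC against LFC with normexp background, and Wt1 to -0.08 for late against early HFC with week 6 included. With array weights, late against early HFC, Krt8 (-2.88), Krt18 (-2.18), Krt19 (-1.73) and Wt1 (1.33) passed the threshold. So did 6938 probes in all, where the main fit tested 29056. Krt8 also passed without week 0 (-3.11, adjusted p = 0.0494, limma), where 148 probes did. The causes were not tested. In an alternative chosen after seeing the data, other scalings put the LFC week 18 array at -3.17 to -1.44 from its week's median (-1.44 with normexp background), HF20 week 3 at -1.87 to -0.43 and HF75 week 3 at -2.16 to -0.63. Diets were paired by time point, since the labels give no replicate numbers, and without that block 4 of the 10 genes were under an unadjusted 0.05 for HFC against LFC (median 1.0). Slide as a block could not be fitted within LFC or HFC.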
